A study of Mus musculus with 9 samples.

Results

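The cytosolic ribosomal protein genes are the nuclear genes for the proteins of the ribosome in the cytoplasm. They were chosen by symbol, as Rpl or Rps followed by a number with the usual suffixes, together with Rpsa, Rplp0, Rplp1 and Rplp2, while rows of pseudogenes (symbols ending in -ps and a number) and the Rps6k kinases were left out. The rule gave 84 of the 24421 genes counted, 51 of the large subunit and 33 of the small subunit. Gene expression was measured by RNA-seq of poly(A) RNA in 9 libraries of 4T1, a mouse mammary carcinoma line, with 3 libraries in each of 3 conditions, all kept for 5 days. 3D_no_palmitate were spheroids grown over soft agar with the vehicle of the fatty acid, 3D_palmitate were spheroids with 75 µM palmitate added, and 2D_palmitate were monolayers with 75 µM palmitate added. All 3 grew in medium with serum, which holds fatty acids of its own, and monolayers were analysed here with added palmitate alone, so the culture forms are compared only in its presence. All libraries come from 1 established line, and although the study's methods speak of biological replicates in general, the labels do not say whether the 3 libraries of a condition came from separate cultures, so p-values measure the spread between these libraries, which may be technical.

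A ribosome holds 1 copy of nearly every one of these proteins, joined to ribosomal RNA, and cells make them in matched amounts from many scattered genes. Their mRNAs are among the most abundant of a growing cell and most carry a TOP sequence, a C followed by a run of C and T at the very 5′ end, through which the kinase complex mTORC1 and the protein LARP1 set how much of them is translated. RNA-seq counts the mRNA and not its translation.

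Total counts ranged from 6595514 to 31177756 per library, the smallest being 3D_palmitate replicate 3. After removal of genes with few counts, 12575 genes were tested, and of the 84 ribosomal protein genes 79 were among them, 47 of the large and 32 of the small subunit. Rpl26, Rpl10l, Rpl39l and Rps4l had 0 counts in all 9 libraries, and Rpl3l had 6 counts in all. Levels are given as CPM, the count of a gene scaled to a common library size, here with TMM factors. Of the markers of the epithelial line, Krt8 stood at 939 to 1561 CPM, whereas Ptprc, Pecam1 and Cdh5, which mark leukocytes and endothelium, had at most 11, 8 and 4 counts in any library and Cd68, a macrophage gene also found in other cells, had 51 to 758 counts. In 3D_palmitate against 2D_palmitate, Cd68 was called lower (log2 fold change -1.39) and 4 of the 5 epithelial markers were called higher, from 0.24 for Krt18 to 1.43 for Epcam, and their part in the results below was not tested.

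The start regions were searched for runs of C and T near the annotated start, which need not be TOP sequences. Of the 84 genes, 63 had an entry in the RefSeq start regions of GRCm38.p6, each holding 300 bases of which 250 lie before the annotated start. A C followed by at least 5 bases that are C or T was found on the sense strand between 10 bases before and 50 bases after the annotated start in 53 of these 63 genes, or 84.1%, and in 42.9% of all 27025 genes with an entry. The letters CCGGAA, the core of sites of the ETS factors, were found on either strand in 55.6% of the 63 and in 16.7% of all genes over the 300 bases. The letters AAGATGG, the core of YY1 sites, were found in 15.9% and 7.28% in the same way. Both cores, read on the reverse strand, hold C and T letters that may lie inside a run. The following stretches, written 5′ to 3′ with the longest run in capitals, belong to genes that fell far between monolayers and spheroids (Rps12, Rplp2, Rps15), to the gene with most counts (Rpl4), to the study's qPCR reference gene (Rpl19), to a protein of the 5S particle (Rpl11), to a paralog (Rpl22l1) and to a gene with a small fall (Rpsa).
Rps12 (chr10:23787177-23787206, minus strand): gccggCCTTTTCCCCTgccgccgccgactt
Rplp2 (chr7:141447642-141447671, plus strand): agcgtCTTCCTTTCgccgccggacgccgcc
Rps15 (chr10:80292451-80292480, plus strand): ccgtaCTTCCTTTTCCgagtaaccgccaag
Rpl4 (chr9:64173408-64173436, plus strand): cgtggCCTTCTCCTCTCCCCgtcatggtg
Rpl19 (chr11:98026951-98026973, plus strand): acaagCTCTTTCCTTTCgctgct
Rpl11 (chr4:136053355-136053384, minus strand): gaagtCTCCCTCTCTCTTCCTgttctccac
Rpl22l1 (chr3:28805506-28805535, plus strand): ccgttCTCTTCCCacggctgcagctcaaca
Rpsa (chr9:120127782-120127811, plus strand): cccgtCCTTTCgcgctacccggggacgggt

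The runs above had 6 to 16 letters, the shortest in Rpsa and the longest in Rpl11. They began between position -4 (Rplp2) and position 33 (Rpl19) from the annotated start, and not all lie at the very 5′ end. Rpl10, not shown, had a run of 9 letters and a log2 fold change of -0.80. In 3 other genes with small falls, no run of that kind lay in the window, nor was there one in either entry of Rpl22, whose log2 fold change was -1.08. For the former 3 genes, the 30 bases from 5 before the annotated start are shown, with no capitals.
Rplp0 (chr5:115559462-115559491, plus strand): ttcgaggaccgcctggttctcctataaaag
Rps4x (chrX:102189367-102189396, minus strand): gcggagcaacccaggctccagcgcgcgcgc
Rpl7l1 (chr17:46782632-46782661, minus strand): gcaagcgcagtagctgaagcaccggaaaga

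A missing run says only that these letters are not in this window, since annotated starts can lie off the base where transcription begins. Over all tested members with an entry, the median log2 fold change between spheroids and monolayers with palmitate was -0.94 for the 50 with a run and -0.90 for the 9 without, so the 2 medians lay close together.

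Spheroids with palmitate were compared with monolayers with palmitate to ask what growth in 3D changes. Nearly every ribosomal protein gene was lower in spheroids. At an adjusted p-value under 0.05 (edgeR quasi-likelihood test, Benjamini-Hochberg adjustment over all 12575 genes), 78 of the 79 tested genes fell and 0 rose. These were 46 of 47 genes of the large and 32 of 32 genes of the small subunit. Among all tested genes 33.9% were called lower and 34.5% higher. In these 78 genes every 3D_palmitate library lay below every 2D_palmitate library, which was so for 34.8% of all tested genes. The median log2 fold change was -1.00 over the large and -0.93 over the small subunit genes, against 0.01 over all tested genes, and the quartiles of the 79 genes lay at -1.09 and -0.82. The genes lie on 19 chromosomes, and across them the log2 fold change went with neither transcript length nor GC content (Spearman's rho 0.05 and -0.03 over the 79 genes, which share their libraries) and weakly with the level (rho -0.19). Set per kilobase of transcript, the levels in 2D_palmitate reached 2743 CPM for Rplp1, 1927 for Rpl4 and 1899 for Rpl8.

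The same fall appears in the share of each library taken up by these genes. In 3D_no_palmitate they held 1.72%, 1.62% and 1.55% of all counts, in 3D_palmitate 1.82%, 1.72% and 1.57%, and in 2D_palmitate 3.36%, 3.19% and 3.63%. The 3 monolayer libraries stood apart from all 6 spheroid libraries, and the mean share in 3D_palmitate was 0.503 of that in 2D_palmitate. Large subunit genes held 2.08% ± 0.13 (SD, n = 3) of the counts in 2D_palmitate and 1.03% ± 0.067 in 3D_palmitate, small subunit genes 1.32% ± 0.093 and 0.678% ± 0.060. The ratio of large to small subunit counts was 1.56 to 1.59 in monolayers, 1.49 to 1.56 in 3D_palmitate and 1.49 to 1.50 in 3D_no_palmitate. For the 3D_palmitate group the upper end of that ratio came from replicate 3. Counts are shares of a library, so less of these mRNAs per cell, more of other mRNAs and a changed mix of cell states within spheroids cannot be told apart.

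**Figure D1:**
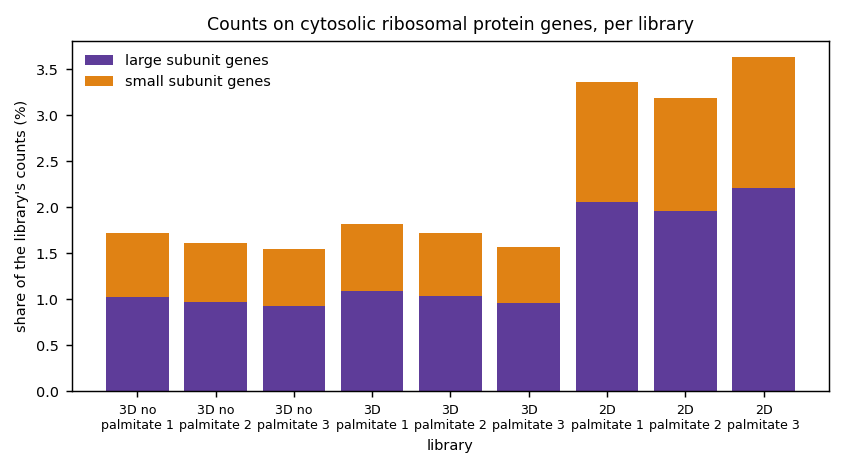
Share of each library's counts (y axis, percent) on large subunit genes (purple) and small subunit genes (orange), stacked, for the 9 libraries along the x axis. The 3 monolayer libraries reach 3.19% to 3.63% and the 6 spheroid libraries 1.55% to 1.82%, with the large subunit above the small one in each.

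Of the genes of the small subunit, Rps12, whose protein sits in the head of the subunit, fell most. It stood at 261, 311 and 406 CPM in the 3 3D_palmitate libraries and at 854, 794 and 829 CPM in 2D_palmitate, a log2 fold change of -1.35 ± 0.12 (SE) with an adjusted p of 1.17e-07. Without added palmitate it stood at 364, 332 and 338 CPM, within the range of the 3D_palmitate libraries. Rps24, a gene mutated in Diamond-Blackfan anaemia, the inherited red cell disease of ribosomal protein loss, varied less. It stood at 229, 229 and 239 CPM in 3D_palmitate and at 576, 518 and 598 CPM in 2D_palmitate, a log2 fold change of -1.28 ± 0.066. Rps25 (-1.16), which helps internal ribosome entry, and Rps15 (-1.12), of the decoding side of the head, followed. The 14 tested genes of the head and the 17 of the body all fell, with median log2 fold changes of -0.93 and -0.94.

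Rps4x and Rpsa fell least in the small subunit. Rps4x, the X-linked gene of protein eS4, stood at 317, 321 and 271 CPM in 3D_palmitate and at 426, 429 and 475 CPM in 2D_palmitate, a log2 fold change of -0.55 ± 0.072 with an adjusted p of 9.55e-06. Rpsa, which also has a name as a laminin receptor, stood at 342, 351 and 325 CPM in 3D_palmitate and at 535, 518 and 545 CPM in 2D_palmitate, with a log2 fold change of -0.65 ± 0.058. The counts of Rps4x for each count of Rps12 were 1.22, 1.03 and 0.668 in 3D_palmitate and 0.499, 0.540 and 0.573 in 2D_palmitate, so the 2 genes fell to different degrees, and the spheroid libraries with palmitate differed among themselves more than the monolayers did.

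Of the large subunit, the genes around the exit tunnel, where the new protein leaves the ribosome, all fell in the 7 tested of 8, with a median log2 fold change of -1.10. Rpl23a, the binding site for the signal recognition particle, stood at 101, 119 and 147 CPM in 3D_palmitate and at 305, 281 and 310 CPM in 2D_palmitate, a log2 fold change of -1.30 ± 0.11 with an adjusted p of 8.52e-08. Rpl4, which reaches into the tunnel and has the most counts of the family, stood at 1369, 1352 and 1426 CPM in 3D_palmitate and at 2962, 2834 and 3093 CPM in 2D_palmitate. Its log2 fold change was -1.10 ± 0.057. Rpl19, also at the tunnel exit and the gene to which the study scaled its qPCR, stood at 185, 200 and 187 CPM in 3D_palmitate and at 423, 386 and 434 CPM in 2D_palmitate, a log2 fold change of -1.12 ± 0.066 with an adjusted p of 2.44e-09. In 3D_no_palmitate Rpl19 stood at 200, 185 and 186 CPM, and the log2 fold change with palmitate was 0.00 ± 0.066. The reference gene thus lay 2.17-fold lower in spheroids than in monolayers at matched palmitate, while the spheroid groups overlapped. For its own comparison of Cpt1a between monolayers and spheroids, the study's text gives RNA-seq and protein and names no qPCR.

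**Figure D2:**
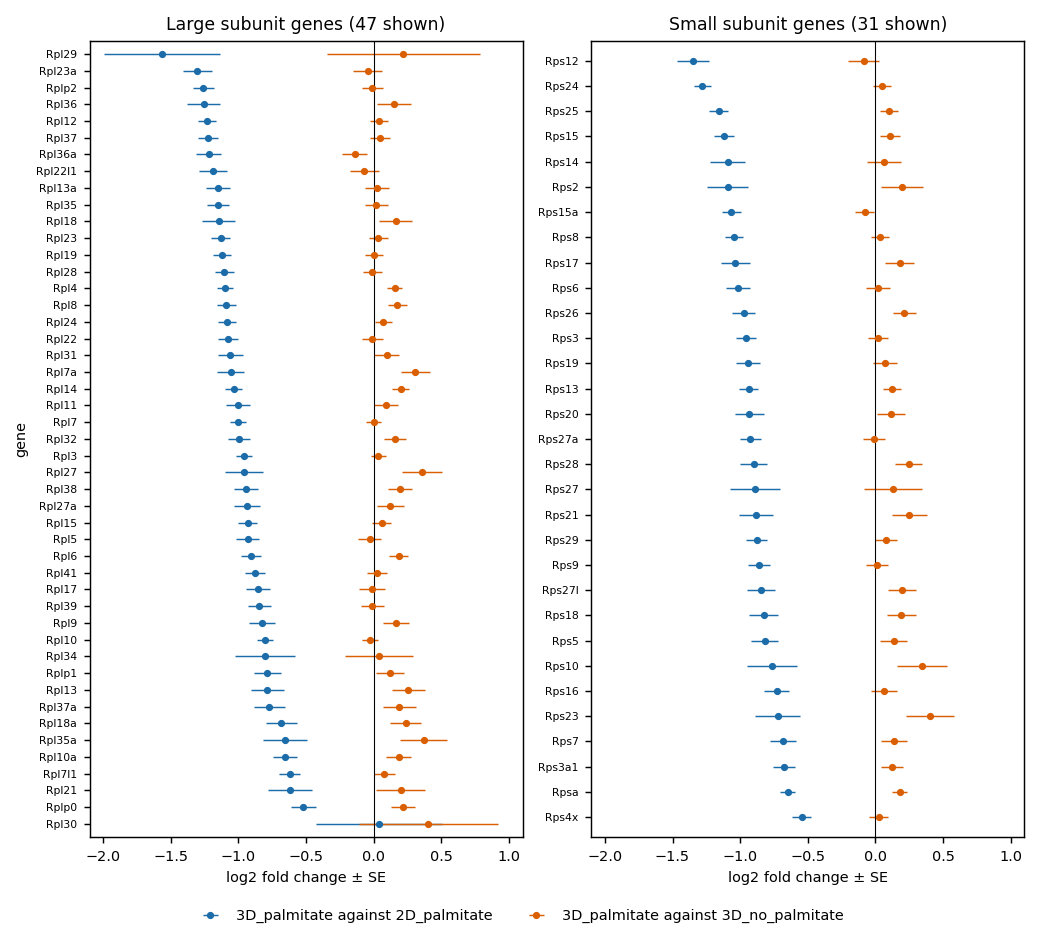
Log2 fold change (x axis) with its standard error for 78 of the tested genes, large subunit at the left and small subunit at the right, in order of the culture comparison. In blue, 3D_palmitate against 2D_palmitate lies below 0 for every gene shown but Rpl30; in orange, 3D_palmitate against 3D_no_palmitate lies around 0, mostly above it.

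The acidic stalk, formed by Rplp0 as the base and by Rplp1 and Rplp2 as the flexible arms that call in elongation factors, is a structure whose 3 genes fell to different degrees. Rplp2 stood at 376, 341 and 331 CPM in 3D_palmitate and at 841, 777 and 893 CPM in 2D_palmitate, a log2 fold change of -1.26 ± 0.076. Rplp0 stood at 759, 709 and 559 CPM in 3D_palmitate and at 959, 921 and 1032 CPM in 2D_palmitate, a log2 fold change of -0.52 ± 0.090 with an adjusted p of 1.29e-04, the smallest called fall of the family. Rplp1 was between them, at 875, 847 and 654 CPM against 1384, 1248 and 1474 CPM, a log2 fold change of -0.79 ± 0.10. The counts of Rplp2 for each count of Rplp0 were 0.877, 0.843 and 0.866 in monolayers, 0.495, 0.481 and 0.593 in 3D_palmitate and 0.659, 0.607 and 0.548 in 3D_no_palmitate. All monolayer libraries lay above all spheroid libraries in this ratio, on which no test was run.

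**Figure D3:**
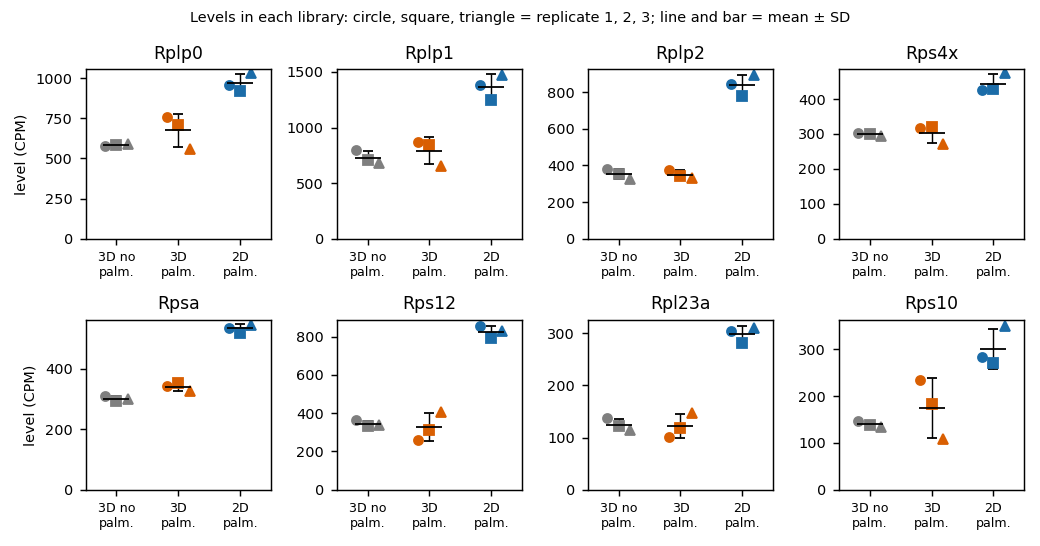
Level (y axis, CPM, from 0) of 8 genes in every library, in grey for 3D_no_palmitate, orange for 3D_palmitate and blue for 2D_palmitate, with the mean and SD of 3 libraries. Monolayers lie above both spheroid groups in all 8, and within 3D_palmitate replicate 3 (triangle) is the lowest library for Rplp0, Rplp1, Rplp2, Rps4x, Rpsa and Rps10 and the highest for Rps12 and Rpl23a.

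Rpl5 and Rpl11, which form a particle with 5S ribosomal RNA and hold the p53 inhibitor Mdm2 when ribosome assembly fails, both fell. Rpl11 stood at 225, 212 and 168 CPM in 3D_palmitate and at 406, 376 and 436 CPM in 2D_palmitate, a log2 fold change of -1.00 ± 0.092. Rpl5 stood at 208, 235 and 270 CPM in 3D_palmitate and at 475, 434 and 445 CPM in 2D_palmitate, a log2 fold change of -0.93 ± 0.084. Within 3D_palmitate, replicate 3 was the lowest library for Rpl11 and the highest for Rpl5. Of the 9 genes listed for Diamond-Blackfan anaemia, all 9 fell, by fitted log2 fold changes from -1.28 for Rps24 to -0.66 for Rpl35a. Other large falls of the large subunit were those of Rpl36 (-1.26) and Rpl12 (-1.23), a protein at the foot of the stalk.

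Of the 7 paralogs, the near copies that can replace a standard protein in some tissues, 3 had enough counts to test and all 3 fell. Rpl22l1 stood at 29.1, 29.6 and 23.0 CPM in 3D_palmitate and at 61.4, 57.6 and 71.0 CPM in 2D_palmitate, a log2 fold change of -1.19 ± 0.10. Its partner Rpl22 had a log2 fold change of -1.08 ± 0.076, and the counts of Rpl22l1 for each count of Rpl22 overlapped between the groups, at 0.108 to 0.130 in 3D_palmitate and 0.124 to 0.142 in 2D_palmitate. Rpl7l1, which works in the assembly of the large subunit in the nucleolus, stood at 129, 123 and 104 CPM in 3D_palmitate and at 183, 175 and 192 CPM in 2D_palmitate. Its log2 fold change was -0.62 ± 0.078 against -1.00 ± 0.059 for Rpl7, and Rpl7l1 had 0.198 to 0.262 counts for each count of Rpl7 in 3D_palmitate and 0.180 to 0.187 in 2D_palmitate. Rps27l, a p53 target, had a log2 fold change of -0.85 ± 0.10 and its partner Rps27, with only 431 counts in the 9 libraries, -0.89 ± 0.19. Rpl3, Rpl10 and Rpl39, whose paralogs were not tested, also fell, with log2 fold changes of -0.96, -0.80 and -0.84.

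The 1 tested gene that was not called was Rpl30, with 115 counts in all. It had 28, 7 and 1 counts in 3D_palmitate and 8, 27 and 13 in 2D_palmitate, and its log2 fold change of 0.04 ± 0.47 had an adjusted p of 0.945. Rpl29 (93 counts), Rpl34 (240), Rps27 (431) and Rpl21 (544) were also thinly counted. The fitted fall of Rpl29, -1.57 ± 0.43, was the largest of the family with an adjusted p of 0.00461. All other tested members had at least 2050 counts. Near-identical processed pseudogenes are many in this family, and how reads with several alignments were handled is not given in the sources used here. Of all 50-base windows, 33.4% of those of Rpl29, 52.2% of Rpl30, 28.7% of Rpl26 and 1.35% of Rps27 occurred in no other annotated gene. Some well-counted members also had low shares, at 6.68% for Rpl9 (34405 counts), 7.87% for Rpl10 (41984) and 9.89% for Rps12 (86609). Low counts need not be low expression, and the part of shared sequence in them was not tested. The size of the fall did not follow the share of windows found in no other gene: grouped by that share (under 25%, 25% to 50%, 50% to 75% and over), the median log2 fold changes were -0.99, -0.92, -0.94 and -0.96. Among rows of pseudogenes, Rpl14-ps1 held 64387 counts against 68818 of Rpl14, with 0.678 to 1.08 counts for each count of Rpl14 over the libraries, and whether these are reads of Rpl14 or of the pseudogene was not tested. Rps19-ps3 and Rps15a-ps4 had 589 and 160.

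Transcript length moved with the culture comparison across the table. Over genes other than ribosomal protein genes, the median was -0.71 on the log2 scale for transcripts under 500 bases (159 genes), -0.33 from 500 to 1000, -0.21 from 1000 to 2000, 0.01 from 2000 to 4000 and 0.25 for longer ones. Ribosomal protein genes of the same lengths stood at -0.90 (14 genes), -0.96 (45 genes) and -0.98 (16 genes) in the first 3 classes. They were lower than other genes of their length in each class, by least among the shortest, and there was no such slope within the family. Each length is that of a single annotated transcript, such as 5130 bases for Rps15a and 3706 for Rps20. It need not be that of the transcript expressed, which limits what the missing slope shows. With each library's trend in GC content and length removed, 76 of 79 genes were still called lower, Rpl34 and Rpl35a no longer, and the median was -0.66 over the family, -0.76 over the large and -0.60 over the small subunit, against -0.08 over all tested genes. The part of length in the fall was not tested further.

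**Figure D4:**
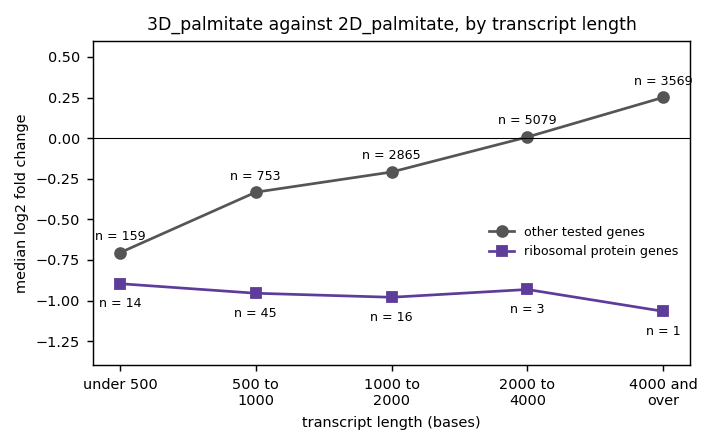
Median log2 fold change of 3D_palmitate against 2D_palmitate (y axis) by transcript length (x axis) for ribosomal protein genes (purple squares) and all other tested genes (grey circles), with the number of genes at each point. Other genes climb from -0.71 to 0.25 with length, and ribosomal protein genes stay between -0.90 and -1.07, the class of 2000 to 4000 bases holding 3 of them and the longest class 1.

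Many genes that work with the ribosomal proteins were lower in spheroids too. The counts below stand beside 33.9% called lower and 34.5% called higher among all tested genes. Of ribosomal proteins that the naming rule leaves out, Fau, Gnb2l1 (the former symbol of Rack1) and Rpl36al were called lower, with log2 fold changes of -0.81, -0.78 and -0.76. Of 16 other genes with TOP mRNAs, 15 fell and 0 rose, with a median of -0.69. Npm1, a nucleolar assembly factor, had -1.50 ± 0.078, and the elongation factor genes Eef1g, Eef1b2 and Eef1d had -1.16, -0.91 and -0.88. The 1 that was not called was Eif3f, an initiation factor subunit, at 0.10 ± 0.10. Of the 77 genes of the mitochondrial ribosome, which has its own proteins, 73 fell and 0 rose, with a median of -0.68. Of 12 genes for chaperones and maturation factors, 9 fell and 1, Aamp, rose. Bccip, the chaperone of Rpl23, Nmd3, the export adaptor of the large subunit, Ltv1, of small subunit maturation, and Eif6, which keeps the subunits apart, had -0.70, -0.60, -0.67 and -0.56.

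Of 19 tested genes of mTORC1 and its partners, 7 were called higher and 7 lower, or 36.8% each way, near the 34.5% and 33.9% of all tested genes. Myc, which drives transcription of ribosome genes, stood at 166 CPM in 3D_palmitate and 461 CPM in 2D_palmitate on average, a log2 fold change of -1.47 ± 0.072 with an adjusted p of 3.19e-10. Eif4ebp1, a translation repressor that mTORC1 switches off, had a log2 fold change of -1.24 ± 0.10. Deptor, an inhibitor within the complex, rose, with a log2 fold change of 1.45 ± 0.085, as did Tsc2, an inhibitor upstream of it, with 0.85 ± 0.065. Its core components Rptor, Mlst8 and Mtor were also called higher, at 0.78, 0.55 and 0.39, and its restrainers Sesn2 and Ddit4 lower, at -0.55 and -0.42, all 5 named after their values were seen. These are levels of mRNA and say nothing of the activity of the kinase.

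Spheroids with palmitate were compared with spheroids without it to ask what the fatty acid changes in 3D, and in all 9 libraries no ribosomal protein gene passed the test. Of the 79 tested genes 0 were called by edgeR and 0 by DESeq2 on all libraries, where 77 had an adjusted p, and 12 (15.2%) had an unadjusted edgeR p under 0.05, as did 17.3% of all tested genes. Among all tested genes 1.38% were called higher and 0.811% lower. The fitted values were above 0 for 65 genes, or 82.3%, and below 0 for 14, where 52.2% of all tested genes were above 0, with a median log2 fold change of 0.09 over the large and 0.12 over the small subunit genes against 0.01 over all tested genes. Other genes with transcripts under 500, 500 to 1000 and 1000 to 2000 bases had medians of 0.085, 0.055 and 0.055. Members of these lengths had 0.139, 0.105 and 0.056. With the GC content and length trend removed, the medians were 0.049 over the large and 0.082 over the small subunit, against 0.005 over all tested genes. The part of length in this lean was not tested further. In 0 of the 79 genes did every library with palmitate lie below every library without it, and in 1030 of all 12575 tested genes. In 6 of the 79 genes every library with palmitate lay above every library without it, as did 10.4% of all tested genes. Among them were Rpl4, Rpl14, Rps13, Rpl6 and Rpsa, chosen here after their values were seen. Rpl14, of the large subunit, had the smallest p, with 305, 302 and 296 CPM with palmitate and 275, 250 and 260 CPM without, a log2 fold change of 0.20 ± 0.062 and an adjusted p of 0.114. In the same libraries the row Rpl14-ps1 had 0.678, 0.829 and 1.08 counts for each count of Rpl14 with palmitate and 1.01, 1.00 and 0.938 without, and the part of this shift in the value of Rpl14 was not tested.

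That count rested on 1 library. Replicate 3 of 3D_palmitate, the smallest library, was the lowest of its group for 56 of the 79 genes, or 70.9%, against 42.0% of all tested genes, and the highest for 14. Replicate 1 of the same group was the highest for 49 of the 79 genes, and for 4862 of all 12575 tested genes. Each other group also had a library that was lowest for most members. In 2D_palmitate, replicate 2 was lowest for 73 of the 79 genes (92.4% against 33.0% of all tested genes). In 3D_no_palmitate, replicate 3 was lowest for 50 (63.3% against 31.0%). Without replicate 3 of 3D_palmitate, 32 of the 79 genes were called, 31 of them higher with palmitate (16 of the large and 15 of the small subunit) and 1 lower. In the same fit 8.56% of 12787 genes were called higher and 6.3% lower. The median log2 fold change of the family was then 0.17, and it was 0.05 with replicate 1 of 3D_palmitate left out instead. With any library other than replicate 3 of 3D_palmitate left out, the count stayed at 0.

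The genes that divide the 3D_palmitate libraries are named here after their values were seen. Rps10, of the head of the small subunit, stood at 234, 183 and 107 CPM with palmitate and at 147, 138 and 134 CPM without. Its log2 fold change was 0.35 ± 0.19 with all libraries and 0.58 ± 0.10 without replicate 3, where its adjusted p was 0.00159. Rps23, of the decoding centre, stood at 52.8, 40.8 and 24.0 CPM with palmitate and at 31.7, 32.3 and 29.6 CPM without, with log2 fold changes of 0.40 ± 0.18 and 0.60 ± 0.10. Rpl27 and Rpl7a had 0.36 and 0.31 with all libraries and 0.52 and 0.42 without replicate 3. In each of these 4 genes, 2 of the libraries with palmitate lay above all libraries without it and replicate 3 lay below them all. Rps12 was the 1 gene called lower without that library, at -0.27 ± 0.070 with an adjusted p of 0.0157, and its 3 libraries with palmitate, at 261, 311 and 406 CPM, lay on both sides of those without. Rplp0 had 759, 709 and 559 CPM with palmitate and 576, 581 and 592 CPM without, and moved from 0.21 ± 0.090 to 0.33 ± 0.057. With replicate 1 of 3D_palmitate left out in place of replicate 3, these values shrank. The log2 fold changes of Rps10, Rps23, Rpl27, Rpl7a and Rplp0 were then 0.08, 0.12, 0.15, 0.18 and 0.12.

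**Figure D5:**
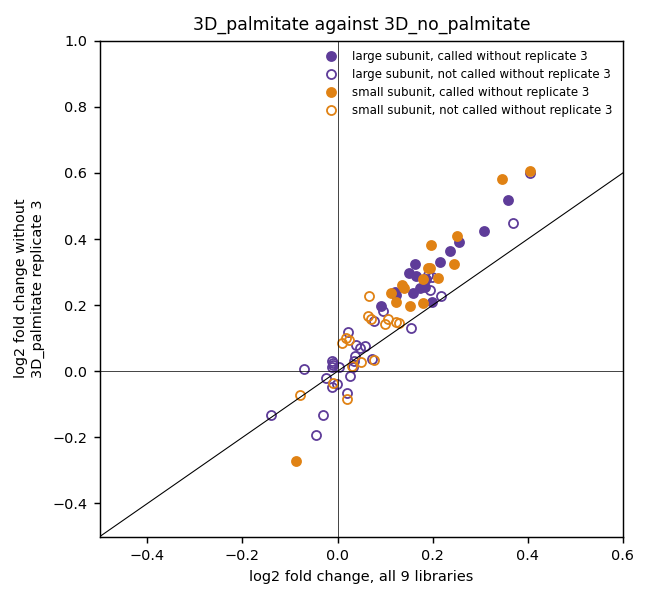
Log2 fold change of 3D_palmitate against 3D_no_palmitate for each tested gene with all 9 libraries (x axis) and without replicate 3 of 3D_palmitate (y axis), filled where called without that library, purple for the large and orange for the small subunit; the diagonal marks equal values. Of the 32 filled points, 31 lie above 0 and 1, Rps12, lies at -0.27.

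Few other translation genes were called with palmitate when all libraries were used, beside 1.38% called higher and 0.811% lower among all tested genes. Over the 77 mitochondrial ribosomal protein genes the log2 fold changes had a median of 0.13, with 0 called by edgeR and 17 (22.1%) at an unadjusted p under 0.05, and the 16 genes with TOP mRNAs had a median of 0.03 with 0 called and 2 (12.5%) at an unadjusted p under 0.05, beside the 17.3% of all tested genes. Of the mTORC1 list, Sesn2, a sensor of amino acid shortage that restrains mTORC1, was the 1 gene called, with a log2 fold change of 0.65 and an adjusted p of 0.0126. Both comparisons use the same 3D_palmitate libraries, so a low or a high library there moves both.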

How the data were processed

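The authors prepared stranded poly(A) libraries, sequenced single-end reads of 50 bases, trimmed them (fastq-mcf), checked quality (FastQC 0.11.9), aligned to GRCm38 (HISAT2 2.1.0) and deposited raw counts per gene from HTSeq, not normalized. Annotation release, strand setting and handling of reads with several alignments are not given in the sources used here. The fit used edgeR 4.0.16 (R 4.3.3): filterByExpr by condition, TMM scaling, a quasi-likelihood fit with condition as the only term over all 9 libraries, and Benjamini-Hochberg adjustment over the 12575 genes tested. The standard error is the log2 fold change over the square root of F. DESeq2 1.42.0 and other scalings, filters, offsets and left-out libraries were alternatives. Lengths, each of a single annotated transcript, and 50-base windows came from GENCODE M21 and start regions from RefSeq. The fit was tested on simulated data. Replicate pairs differed by more than sampling noise (chi-square per gene 3.90 to 19.7). Members, gene lists and the naming rule were chosen with earlier results of these data known. The rule took, for each comparison and subunit, up to 5 called genes with the largest changes, genes called against the majority, Rpl19, Rpsa, the stalk and 5S genes, each paralog with its partner, and up to 4 genes for each other list by p. Some named genes are not reported here.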

Additional observations from a re-analysis of the deposited data

How the results depend on the processing

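For 3D_palmitate against 2D_palmitate, 76 to 78 genes were called, all lower, under every scaling, filter, covariate and tool tried, and 77 to 78 with each library left out in turn, where the median lay between -1.02 and -0.91 and Rpl34 was lost without 3D_palmitate replicate 1. Of the settings tried, only removal of the GC content and length trend moved that median beyond the spread between libraries, to -0.66. The 36 tested members with at least 50% of windows in no other gene, an alternative chosen after seeing the data, gave 35 calls, and those with no row of a -ps pseudogene gave 72 of 73. For 3D_palmitate against 3D_no_palmitate, 4 genes were called with no filter on low counts (Rpl27, Rpl7a, Rps10 and Rps23), 3 with the GC content and length trend removed (Rpl13, Rpl14 and Rpl7a), and 0 to 32 with a library left out, with medians from 0.05 to 0.17. The other settings gave 0. Rpl30 turned to -0.28 with the replicate block, to -0.13 with DESeq2 on all libraries and on the 2 groups, and, with a library left out, ranged from -0.84 to 0.27. The cause was not tested. Replicate numbers shared between conditions did not pair the libraries: deviations of same-numbered libraries correlated by -0.24 to 0.15 over 9 pairs and those of other numbers by -0.17 to 0.28 over 18. With the replicate number as a replicate block, 78 genes were called lower in the first comparison with a median of -0.95 and 0 in the other with a median of 0.11, and it changed no call. Depth limits Rpl29, Rpl30, Rpl34, Rps27 and Rpl21.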
